A study of Mus musculus with 2 samples.

Results

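Lysosomal genes of the retinal pigment epithelium (RPE) were followed in single cells of 2 mice. The set held 34 listed genes and the 22 genes whose symbol starts with Atp6v, 56 of the 27998 genes in the deposited tables. The genes were chosen by name and not by a measured value, though with earlier results of these data known. It comprised 10 proteases, 13 other hydrolases, 3 soluble cofactors or carriers, 6 membrane proteins and the transcription factors Tfeb and Tfe3. The Atp6v genes were 13 V1 and 9 V0 genes of the vacuolar proton pump (V-ATPase).

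The samples were RPE cells of 2 male C57BL/6J mice, R1 and R2, of the same untreated group. The labels give an age of 4 to 5 weeks and the protocol postnatal day 36. Each sample joined the RPE of the left and right eye, released from the eyecup with trypsin, disrupted mechanically, sorted as calcein-AM positive and DAPI negative, and profiled on the 10x Genomics 3′ droplet platform (the labels name the v3 chemistry, the study's methods another version). Each captured transcript carried a unique molecular identifier (UMI), so a gene's UMIs count molecules and were compared between genes without division by length.

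RPE cells take up the shed tips of photoreceptor outer segments every day and digest them in lysosomes, so hydrolases, lipid carriers and the membrane that contains them are prominent in this epithelium. The lysosomal lumen is kept acid by the V-ATPase, in which the cytosolic V1 sector splits ATP and the membrane sector V0 carries protons. Tfeb and Tfe3 are related transcription factors that bind E-box sites near many lysosomal genes.

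After filters on genes, mitochondrial UMIs and doublets, 2671 cells of R1 and 2847 of R2 remained of 2844 and 2994 deposited. Ttr, the transthyretin gene and among the most abundant RPE transcripts, divided them into 2612 and 2828 high-Ttr cells (at or above 5% of UMIs) and 59 and 19 low-Ttr cells (under 3%), with 0 cells between. The medians were 8420 and 7689 UMIs in high-Ttr and 3200 and 3836 UMIs in low-Ttr cells. All high-Ttr cells had at least 3 of 8 RPE markers (Rpe65, Rlbp1, Rgr and others), whose summed level was 383 and 444 UMIs per 10000 UMIs, against 35.3 and 25.7 in low-Ttr cells. Of the low-Ttr cells, 55 and 16 held a UMI of Pax6 or Dkk3, genes the study ties to a minor group of pigment cells, and 5 and 3 carried at least 3 markers of microglia or fibroblasts. A UMI of Pax6 or Dkk3 was also held by 324 and 205 high-Ttr cells, so it does not mark that group by itself. The mice shared 12 cell barcodes.

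The E-box is the site that Tfeb and Tfe3 are known to bind, so it is shown here for proteases, membrane proteins and V-ATPase genes. Promoters from 250 bases before to 50 after the start were searched for CACGTG, which reads the same on both strands (RefSeq, GRCm38.p6). A promoter was found for 45 of the 56 genes, 54 promoters in all, and 15 of these (27.8%) held an E-box, against 7.15% of 32851 promoters of all genes. The longer form TCACGTGA, which overlaps the E-box, occurred in 7 of the 54 (13.0%) and in 0.974% of all. Windows from 4 hydrolase or membrane protein genes described below, from Mcoln1, and from V0 and V1 genes are given 5′ to 3′ on the strand of the gene, with the E-box in capitals.
Ctsd (chr7:142387908-142387937, minus strand): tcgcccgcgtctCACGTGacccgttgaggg
Ctsl (chr13:64370739-64370768, minus strand): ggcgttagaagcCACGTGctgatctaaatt
Lgmn (chr12:102439124-102439153, minus strand): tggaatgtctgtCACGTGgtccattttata
Lamp1 (chr8:13159088-13159117, plus strand): agggcaagatatCACGTGgtccagcgccca
Mcoln1 (chr8:3500462-3500491, plus strand): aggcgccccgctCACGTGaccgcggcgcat
Atp6v0b (chr4:117887348-117887377, minus strand): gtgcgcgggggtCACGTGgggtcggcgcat
Atp6v0e (chr17:26676387-26676416, plus strand): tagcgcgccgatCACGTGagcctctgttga
Atp6v1a (chr16:44139373-44139402, minus strand): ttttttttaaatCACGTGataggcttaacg
Lamp1 held 4 E-boxes within the window and Mcoln1 2. Ctsd, the most abundant hydrolase transcript, is shown with its whole upstream stretch, since both of its E-boxes lie there.
Ctsd, 250 bases upstream (chr7:142387828-142388077, minus strand): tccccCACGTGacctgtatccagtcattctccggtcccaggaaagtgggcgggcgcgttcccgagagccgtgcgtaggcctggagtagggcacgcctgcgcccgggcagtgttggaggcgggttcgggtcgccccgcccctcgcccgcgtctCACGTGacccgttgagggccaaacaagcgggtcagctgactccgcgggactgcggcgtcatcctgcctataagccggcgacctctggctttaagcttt
These matches are descriptions of sequence, and binding was not measured.

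In high-Ttr cells the 56 genes together gave 181.3 UMIs per 10000 in R1 (SD over 2612 cells 33.2) and 178.2 in R2 (SD over 2828 cells 28.8), or 1.85% and 1.81% of all UMIs. The SD describes single cells and includes the counting error of each cell, so it does not measure how far the mice differ. A few transcripts carried most of this level: the 3 highest gave 45.9% of it in R1 and 45.1% in R2, and the 10 highest 78.0% and 78.7%. At the other end, 3 genes (Atp6v0a4, Atp6v0d2, Atp6v1g3) had 0 UMIs in high-Ttr cells of both mice, which allows up to the level of 3 UMIs in a mouse.

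Cd63, a tetraspanin of lysosomes and exosomes, was the highest, at 35.6 UMIs per 10000 in R1 and 33.1 in R2 (rank 20 of all genes by the mean of the mice). Ctsd, the aspartic protease cathepsin D, followed at 27.8 and 29.9. Psap, the precursor of the saposins that present sphingolipids to their hydrolases, stood at 19.7 and 17.4. Npc2, the soluble cholesterol carrier of the lumen, reached 11.4 and 12.7. These first genes kept their order in both mice, since each gene's lower value lay above the next gene's higher value. The same held down to Atp6v1f in the tenth place, whereas in the whole order 28 of 52 neighbouring pairs overlapped between mice.

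**Figure D1:**
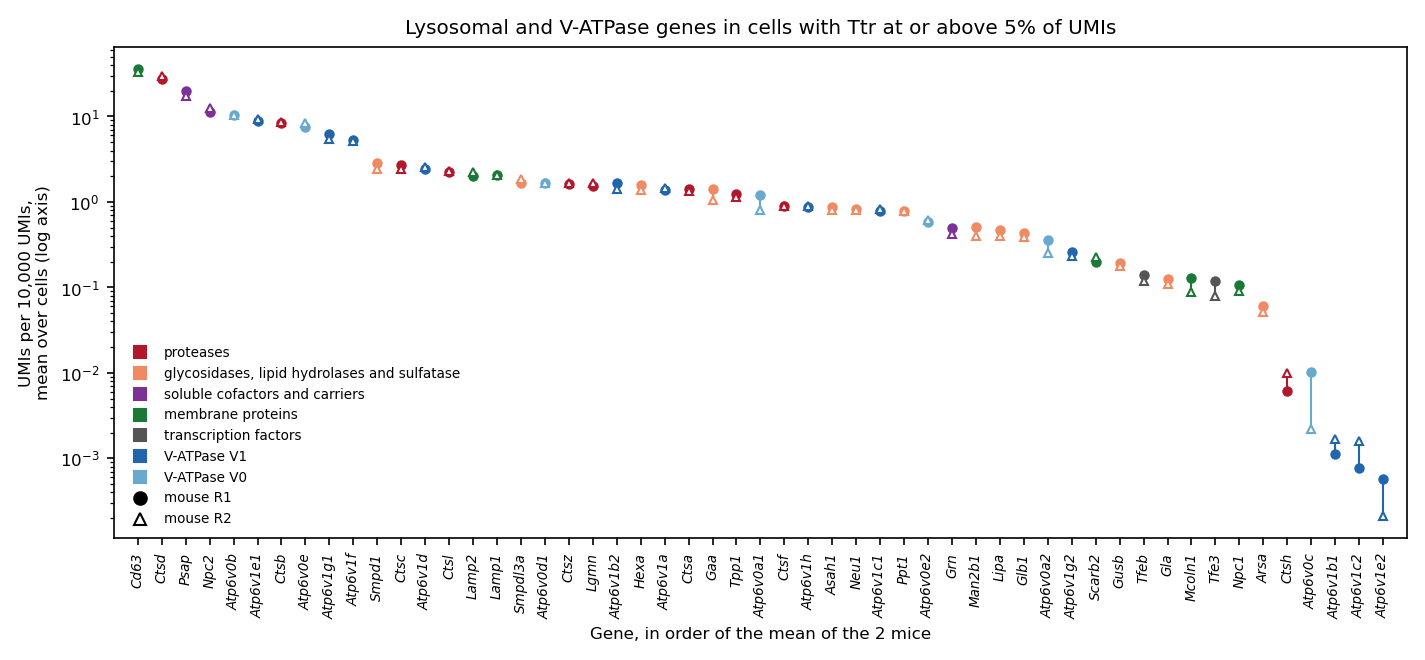
Level of each gene with at least 1 UMI in high-Ttr cells (UMIs per 10000 UMIs, mean over cells, log axis), with filled circles for R1, open triangles for R2 and colours for roles. Cd63 at 35.6 and 33.1 and Ctsd at 27.8 and 29.9 stand at the left, and 5 genes below 0.011 stand apart at the right.

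Among the proteases, Ctsb (cathepsin B) stood at 8.47 and 8.62 UMIs per 10000, and Ctsc, Ctsl, Ctsz, Lgmn, Ctsa, Tpp1 and Ctsf lay between 0.887 and 2.68. Ctsh, an aminopeptidase, was nearly absent, at 0.00612 and 0.00988. The 13 other hydrolases were lower than the leading proteases, from 0.0523 for Arsa in R2 to 2.88 for Smpd1 (acid sphingomyelinase) in R1. Smpdl3a, related to Smpd1, followed at 1.67 and 1.84, and Gla, the alpha-galactosidase of globotriaosylceramide, was among the lowest at 0.127 and 0.110. Together the proteases gave 47.9 and 49.98 UMIs per 10000, and the other hydrolases 11.8 and 10.6. Grn, which encodes progranulin, was the weakest of the cofactors at 0.494 and 0.423.

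The membrane proteins spanned a wide range. Lamp1 and Lamp2, the heavily glycosylated proteins of the limiting membrane, were at 2.05 and 2.04 and at 2.00 and 2.22, and overlapped each other. Mcoln1, the lysosomal calcium channel TRPML1, was at 0.130 and 0.0889, and Npc1, the cholesterol exporter that works with Npc2, at 0.107 and 0.0914. Tfeb (0.140 and 0.119) and Tfe3 (0.120 and 0.0798) lay in the same low range. Neighbours in the order from Tfeb to Npc1, which also include Gla, were not separated by the mice.

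Among the Atp6v genes, 1 gene gave nearly all UMIs for most positions of the V-ATPase. In V1, the E subunit of the peripheral stalk came from Atp6v1e1 (8.91 and 9.33 UMIs per 10000) and not Atp6v1e2 (0.000571 and 0.000211). The G subunit came mainly from Atp6v1g1 (6.28 and 5.39), with Atp6v1g2 at 0.262 and 0.232. The B subunit of the catalytic ring came from Atp6v1b2 (1.68 and 1.404), while Atp6v1b1 (0.00113 and 0.00170), known from kidney and inner ear, was near 0. The A subunit, Atp6v1a, was at 1.39 and 1.44, so that genes whose proteins share a complex differed several-fold in transcript level.

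In V0, Atp6v0b stood at 10.4 and 10.3 UMIs per 10000 and Atp6v0e at 7.51 and 8.28. Of the large a subunit, among genes named Atp6v, Atp6v0a1 (1.19 and 0.809) exceeded Atp6v0a2 (0.363 and 0.253) in both mice. Any pump gene with another kind of symbol is outside the set and was not compared. Atp6v0c, which encodes the proteolipid of the proton-carrying ring, had only 0.0102 and 0.00221. The annotation (GENCODE M21, GRCm38) has 2 processed pseudogenes named after Atp6v0c that are not in the deposited gene tables. Of the 50-base stretches of the Atp6v0c transcript 32.5% occurred exactly in these 2, and 0 of 451 in the last 500 bases at its 3′ end. Copies under other names and inexact matches were not searched. The part of read assignment in the count of Atp6v0c was not tested.

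The share of cells with a UMI followed level and depth. Before thinning, 10 genes in R1 and 9 in R2 were found in over 90% of high-Ttr cells, and the median share over the 56 genes was 44.7% and 40.3%. With each cell thinned to 2500 UMIs (84 shallower cells of R1 and 0 of R2 left out), the medians were 18.9% and 17.0%. After thinning, Cd63 was found in 99.8% of cells of both mice and Ctsd in 99.3% and 99.5% (exact 95% Clopper-Pearson interval 98.9 to 99.6% and 99.2 to 99.8%). Lamp1 was found in 37.1% and 35.8%, and Lamp2 in 36% and 36.6%. Tfeb was found in 2.61% (2.02 to 3.31%) and 2.33% (1.81 to 2.96%), a share that 1 UMI per cell at this level allows. Intervals cover counting error only, and no kind of cell in these samples lacks lysosomes and so could serve as a background for free RNA.

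Depth was compared next, since cells with more UMIs may hold more RNA or have been better captured, which cannot be told apart. From the lowest to the highest quartile of UMIs per cell (medians of 3769 and 15125 in R1, 3251 and 17694 in R2), the summed level went from 169.9 to 188.8 UMIs per 10000 in R1 and from 178.8 to 184.2 in R2. In R1 each quartile was above the one before it, while in R2 the middle quartiles, at 173.1 and 176.8, lay below the lowest. None of the 48 genes tested was called between the lowest and highest quartiles (edgeR's quasi-likelihood test on UMIs summed per mouse, 4 libraries, mouse as a block, Benjamini-Hochberg adjusted p of 0.05). DESeq2 also called 0, and 2 had an unadjusted p under 0.05, Gla (log2 fold change -0.64) and Smpdl3a (0.33). Of all 10589 genes tested 0.472% were called, 0.00944% higher and 0.463% lower in the deepest quartile. Without TMM scaling, 0 members were called too, against 0.0283% of all genes higher and 0.501% lower. The median log2 fold change of the members was 0.04, against 0.00 over all genes.

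By role, the proteases summed to 44.4 UMIs per 10000 in the lowest and 50.8 in the highest quartile of R1 and to 50.7 and 52.1 in R2, and the membrane proteins to 35.5 and 43.0 and to 37.5 and 39.0. The V1 genes, at 27.7 and 27.9 in R1 and 26.7 and 28.0 in R2, were nearly level. Cd63 made up most of the difference in the membrane proteins, at 31.2 and 38.0 in R1 and at 32.6 and 34.1 in R2.

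Single members moved little with depth. Ctsd went from 25.4 to 30.2 UMIs per 10000 in R1 and from 30.4 to 31.6 in R2 (log2 fold change 0.15, SE 0.13). Psap went from 20.2 to 19.5 and from 18.0 to 17.4 (-0.07, SE 0.13). Tfeb and Tfe3 together stood at 0.267 and 0.238 in R1 and at 0.227 and 0.155 in R2, a difference that did not pass the test for either gene. The mitochondrial share also moved with depth in R1, where its median was 2.36% in the lowest and 0.967% in the highest quartile, and less in R2 (1.32% and 1.05%). Its part in these values was not tested.

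**Figure D2:**
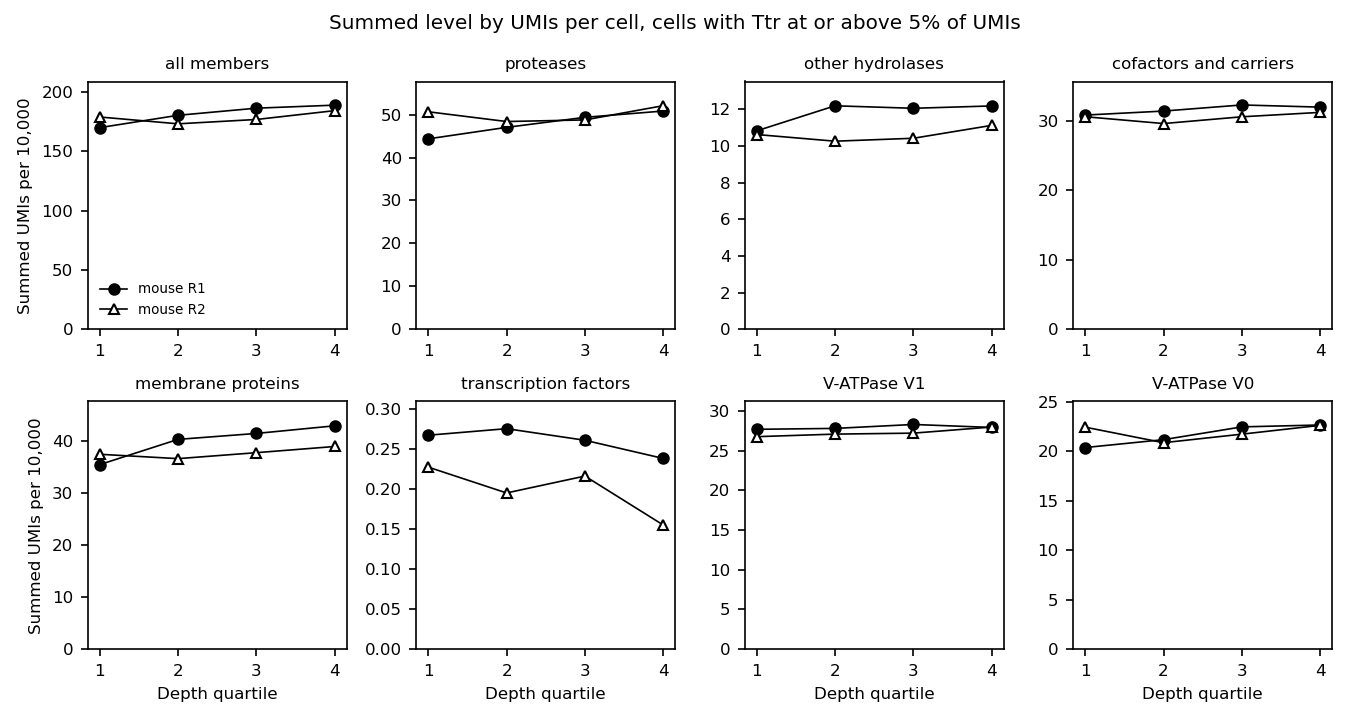
Summed level by depth quartile of high-Ttr cells (UMIs per 10000 UMIs, mean over cells) for all 56 genes and for each role, with filled circles for R1 and open triangles for R2. The sum over all genes lies between 169.9 and 188.8 in every quartile of both mice.

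Covariation was described within depth quartiles, as Pearson's r of log2(UMIs per 10000 + 1) averaged over the 4 quartiles, for the 38 members found in at least 20% of high-Ttr cells of both mice. Most pairs were close to 0: the median over 703 pairs was 0.0163 in R1 (2612 cells) and 0.0112 in R2 (2828 cells), against 0.0025 and 0.0020 over all pairs of 2946 genes with that share. An r over 0.1 was found in 28 pairs in R1 (3.98%) and 9 in R2 (1.28%), against 0.123% and 0.0317% of all gene pairs. Points are cells of a single library that share depth and total, abundant genes give less noisy r, and the members are more abundant than most of the 2946 genes, so no p is given.

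The pairs over 0.1 all joined lysosomal proteins to each other. The highest was Ctsd with Psap, at 0.277 in R1 and 0.234 in R2. It was followed by Psap with Ctsc (0.202 and 0.0921), with Lgmn, the asparagine-specific protease legumain (0.163 and 0.115), and with Smpd1 (0.156 and 0.104). Among the 300 pairs of lysosomal proteins the median r was 0.0365 and 0.0219. In contrast, the 78 pairs of V-ATPase genes had medians of 0.0018 and 0.0044, with 0 pairs over 0.1, although their products assemble into a single complex. The lowest pair was Psap with the V1 gene Atp6v1g1, at -0.119 and -0.112, and Psap with Atp6v1f was also below 0 (-0.0663 and -0.0867).

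**Figure D3:**
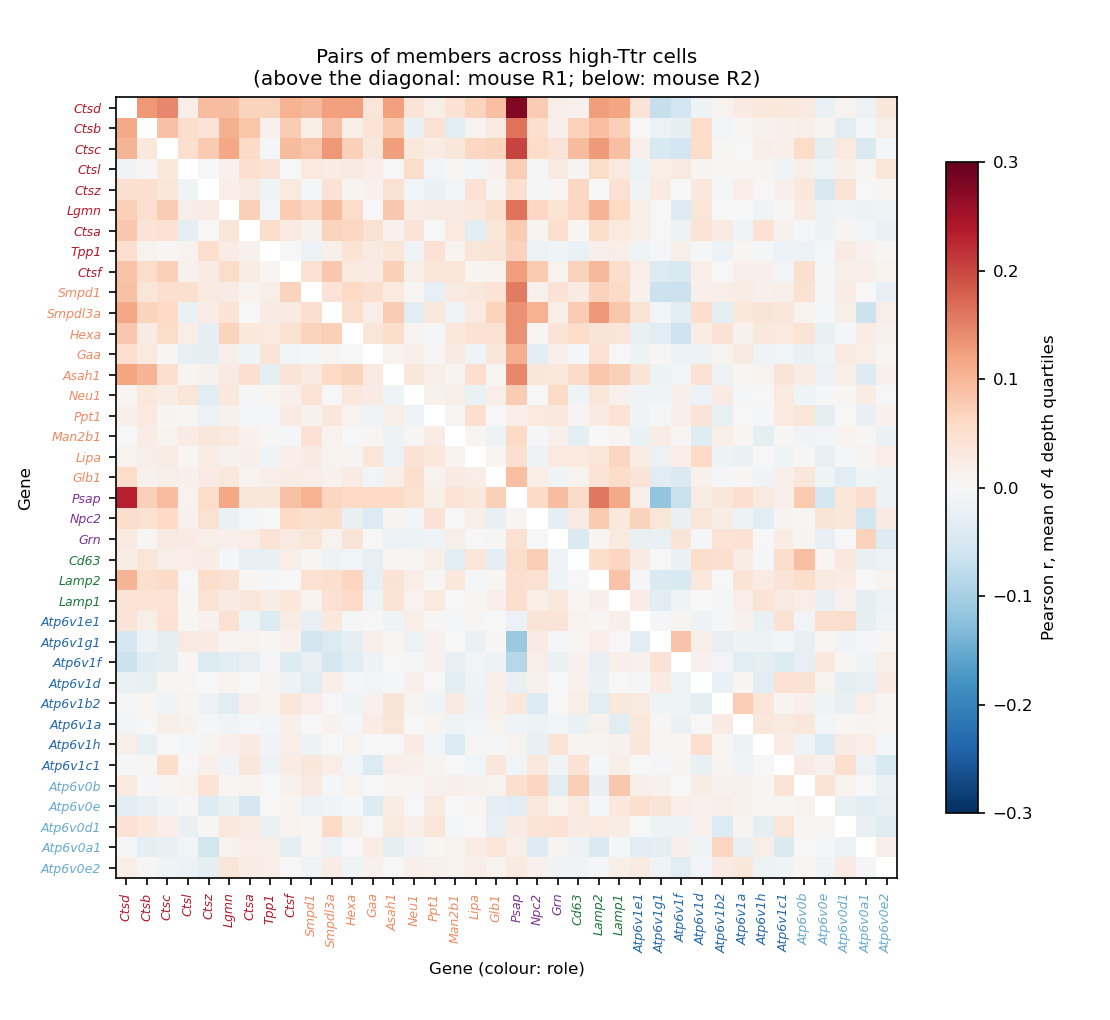
Pearson's r between pairs of the 38 members across high-Ttr cells, averaged over 4 depth quartiles, above the diagonal for R1 and below it for R2, with gene names coloured by role. Ctsd with Psap (0.277 and 0.234) is the darkest cell, and the V-ATPase block at the lower right is near 0.

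Set against the summed level of all other members, Psap (0.313 and 0.194), Ctsd (0.233 and 0.191) and Ctsc (0.242 and 0.128) were the highest, and Atp6v1f (-0.0792 and -0.0655) and Atp6v1g1 (-0.0908 and -0.047) the lowest. Outside the set, the 10 genes whose pattern was most like the summed level of all 56 were Clu, Rgr, Bsg, Trf, Apoe, Cpe, Car14, Tmem59, Hspa5 and Rnf13, of 2908 genes compared. Clu, the secreted chaperone clusterin, reached 0.440 in R1 and 0.318 in R2, and Rgr, a retinal-binding receptor of the RPE, 0.370 and 0.356. Rnf13, a ubiquitin ligase, closed the list at 0.267 and 0.176, and the median over all non-member genes was 0.0086 and 0.0097. From the list of other lysosome genes, Atp6ap2, an accessory protein of the V-ATPase, was highest at rank 19 (0.243 and 0.117). By the mean of the mice, the lowest genes were Mt1 (-0.27 and -0.279), Malat1 (-0.327 and -0.212) and mt-Nd1 (-0.245 and -0.242). Ttr came next, at -0.247 and -0.228. Since all levels are shares of the same total, an abundant gene and the sum cannot vary freely of each other. The part of cell state or RNA quality in these values was not tested.

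In low-Ttr cells, 6 members were lower and 3 higher than in high-Ttr cells of the same mice. Lower were Atp6v1e1, Ctsd, Psap, Atp6v0b, Atp6v0e and Npc2, which are 6 of the 8 most abundant members in high-Ttr cells. Abundant genes are easier to call lower, since the low-Ttr cells held few UMIs. The weaker Neu1 (log2 fold change -1.52) and Man2b1 (-1.36) fell further than Npc2 (-1.16) and were not called. Higher were Ctsh, Grn and Ctsl, cathepsin L. The test was edgeR's quasi-likelihood test on UMIs summed per mouse and class with the mouse as a block (adjusted p of 0.05 over 11465 genes), and 49 of the 56 genes passed its filter on low counts. With the mouse as a block, how alike the class difference was in the 2 mice enters the p-values only in part. The spread behind the p-values is estimated with the help of all genes, so they do not measure the spread between mice. Called higher were 6.12% of the members tested, against 4.13% of all genes, and called lower 12.2%, against 6.11%. The share called higher includes Ctsh, which passed the filter only through the class where it is high. The members' median log2 fold change was -0.41 and that of all genes -0.34.

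The fold changes are relative to the scaling. TMM, which assumes that most genes do not change, placed the median of all genes at -0.34, and scaling by library size alone placed it at 0.38. A gene can therefore take a larger share of UMIs in low-Ttr cells and still have a log2 fold change below 0. Of all genes called, 40.3% were higher with TMM and 74.0% without it. Without TMM, 8 members were higher (9.5% of all genes) and 3 lower (3.34% of all genes), with Lipa, Lamp1, Ctsf, Lamp2 and Cd63 added to the higher ones and Atp6v0b, Atp6v0e and Npc2 lost from the lower ones. Atp6v1e1, Ctsd and Psap were lower, and Ctsh, Grn and Ctsl higher, in all 14 tested alternatives. For Ctsh this adds no support, since it passed the filter on low counts only with the low-Ttr libraries.

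**Figure D4:**
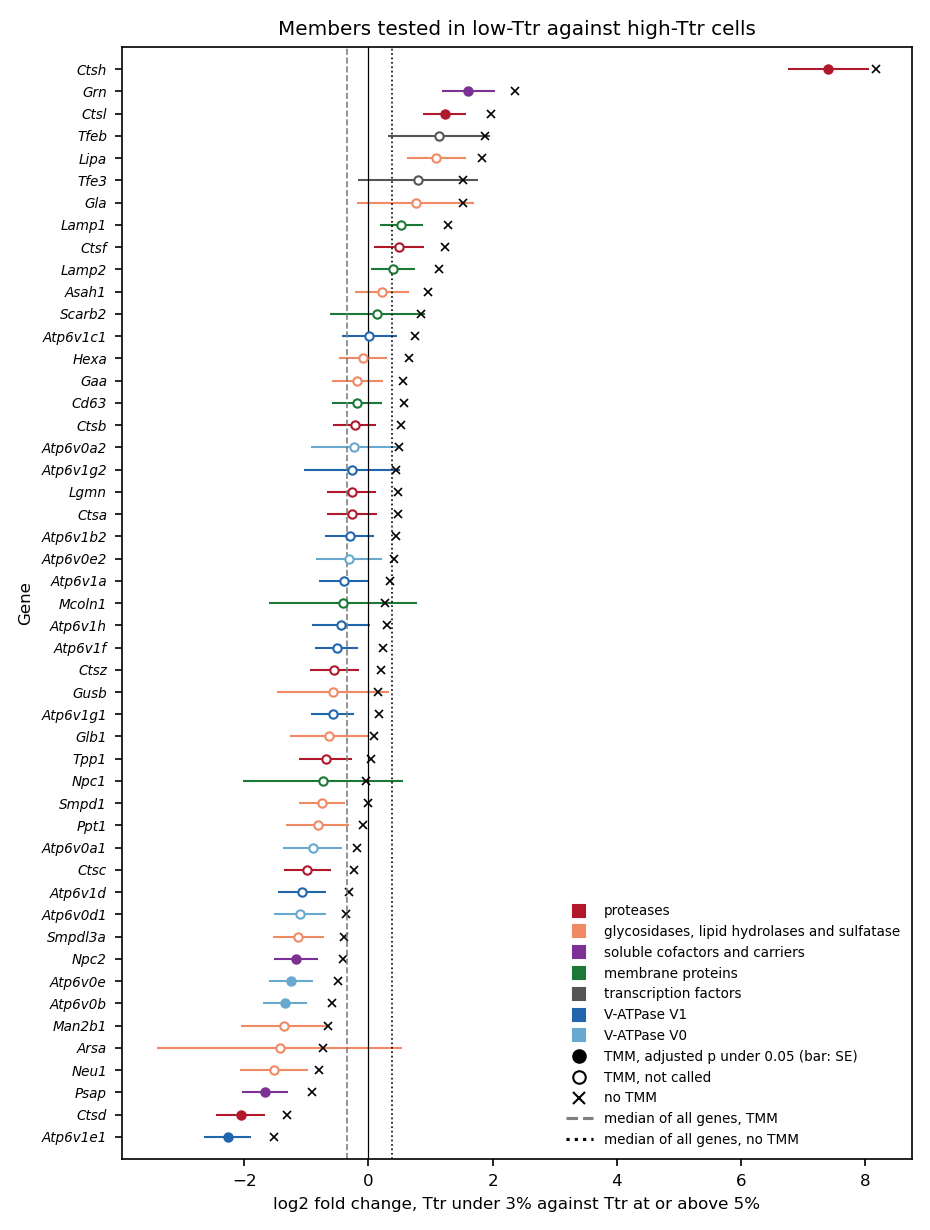
Log2 fold change of the 49 tested members between low-Ttr and high-Ttr cells with TMM (circles, bars for the SE, filled where adjusted p was under 0.05) and without TMM (crosses), with the median of all genes under each scaling as a vertical line. With TMM, Atp6v1e1 at -2.27 and Ctsh at 7.41 are the extremes, and every cross lies to the right of its circle.

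Atp6v1e1 (ENSMUSG00000019210, chr6:120794305-120822793, minus strand) was at 8.91 UMIs per 10000 in high-Ttr and 3.87 in low-Ttr cells of R1, and at 9.33 and 2.98 in R2. Both low values were under both high values, and the log2 fold change was -2.27 (SE 0.38, adjusted p from edgeR 6.7e-08). Other abundant V1 genes were not called. Atp6v1f was at 5.28 and 6.15 in R1 and at 5.20 and 6.58 in R2 (-0.51, edgeR adjusted p 0.49), and Atp6v1g1 at 6.28 and 6.81 and at 5.39 and 6.74 (-0.57, edgeR adjusted p 0.40). Of the 9 V1 genes tested, Atp6v1e1 was the 1 called in the test as described. Atp6v1d, a subunit of the central stalk, was at 2.44 and 2.52 and at 2.54 and 1.78 (-1.06, edgeR adjusted p 0.057) and was called lower in 6 of the 14 alternatives (range -1.24 to -0.32).

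Of the 6 V0 genes tested, 2 were called lower, where 6.11% of all genes were. Atp6v0b was at 10.4 and 7.09 UMIs per 10000 in high-Ttr and low-Ttr cells of R1 and at 10.3 and 7.96 in R2 (log2 fold change -1.34, SE 0.36, edgeR adjusted p 0.0027). Atp6v0e was at 7.51 and 5.97 and at 8.28 and 6.66 (-1.25, SE 0.35, edgeR adjusted p 0.0061). Both calls were lost without TMM, at adjusted p of 0.073 and 0.20. Atp6v0d1 was at 1.66 and 1.69 and at 1.68 and 0.933 (-1.10, edgeR adjusted p 0.076) and was called lower in 7 of the 14 alternatives (range -1.36 to -0.36). As printed above, the promoters of Atp6v0b and Atp6v0e hold an E-box, and so do those of Ctsd and of Ctsl. None was found in the promoters of Psap. For Npc2, Atp6v1e1, Grn and Ctsh none was found either, but a promoter was not available for every member, and these may be among those without. Over all members, 15 of the 45 genes with a promoter held an E-box. The part of E-boxes in these changes was not tested.

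Ctsd (ENSMUSG00000007891, chr7:142375911-142388038, minus strand) was at 27.8 UMIs per 10000 in high-Ttr and 12.2 in low-Ttr cells of R1, and at 29.9 and 10.9 in R2. Both low means were under both high means, and the log2 fold change was -2.06 (SE 0.39, edgeR adjusted p 4.5e-06). Single cells spread widely, with an SD over cells of 11.2 in high-Ttr and 13.1 in low-Ttr cells of R1. Psap (ENSMUSG00000004207, chr10:60277627-60302597, plus strand) was at 19.7 and 10.7 and at 17.4 and 9.10 (-1.66, SE 0.37, edgeR adjusted p 0.00017). Npc2 was at 11.4 and 9.99 and at 12.7 and 10.0 (-1.16, SE 0.36, edgeR adjusted p 0.014). The call of Npc2 was lost without TMM (edgeR adjusted p 0.28) and against high-Ttr cells of the lowest depth quartile (edgeR adjusted p 0.077), and its 1 microglia-marked cell gave 13 of its 79 UMIs in R2. In the annotation 808 exon bases of Ctsd are shared with the overlapping gene model Gm49369 and 395 of Ctsl with the pseudogene Gm49230, neither of which is in the deposited tables.

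**Figure D5:**
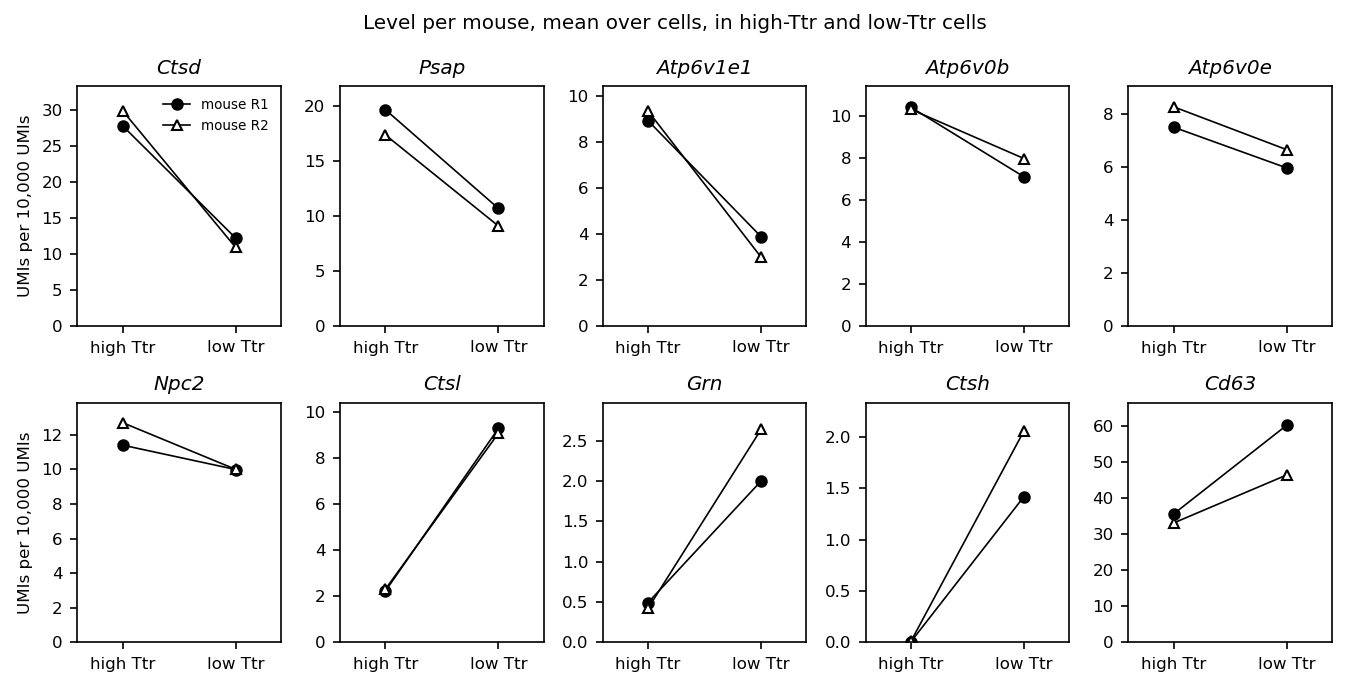
Level of the 9 called members and Cd63 in high-Ttr and low-Ttr cells of each mouse (UMIs per 10000 UMIs, mean over cells, axes from 0), with filled circles for R1, open triangles for R2 and a line joining the classes of a mouse. Ctsd runs from 27.8 to 12.2 and from 29.9 to 10.9, and Ctsl from 2.22 to 9.27 and from 2.30 to 9.06.

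Ctsl (ENSMUSG00000021477, chr13:64359337-64370890, minus strand), a cysteine protease, was at 2.22 UMIs per 10000 in high-Ttr and 9.27 in low-Ttr cells of R1, and at 2.30 and 9.06 in R2. The values of the mice were close in each class, and the log2 fold change was 1.23 (SE 0.34, edgeR adjusted p 0.0047). Grn (ENSMUSG00000034708, chr11:102430315-102437048, plus strand) was at 0.494 and 2.00 and at 0.423 and 2.64 (1.61, SE 0.43, edgeR adjusted p 0.0026). Its counts were small, 39 UMIs in 24 low-Ttr cells of R1 and 24 UMIs in 8 cells of R2. Ctsb, close to Ctsl in function, was at 8.47 and 13.7 and at 8.62 and 11.3, and was not called (-0.22, edgeR adjusted p 0.81).

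Ctsh (ENSMUSG00000032359, chr9:90054152-90076089, plus strand) had 15 UMIs in R1 and 25 in R2 over all high-Ttr cells, and 27 and 31 UMIs in the far fewer low-Ttr cells. Its level was 0.00612 and 1.42 UMIs per 10000 in R1 and 0.00988 and 2.06 in R2, a log2 fold change of 7.41 (SE 0.66, edgeR adjusted p 8.5e-27). Ctsh was too low in high-Ttr cells to be tested between depth quartiles. Here it passed the filter on low counts only with the low-Ttr libraries, where it is high, so the p adds no support beyond the counts. At 2500 UMIs per cell, 5 of 49 low-Ttr cells of R1 (10.2%, exact interval 3.40 to 22.2%) and 4 of 19 of R2 (21.1%, 6.05 to 45.6%) held a UMI, against 0.0791% and 0.212% of high-Ttr cells. Before thinning these shares were 18.6% and 26.3%, against 0.268% and 0.601%. A few cells carried much of it, since 2 cells gave 11 of the 27 UMIs in R1 and 23 of the 31 in R2.

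The low-Ttr cells were not of a single kind, and markers of other cells moved with the class. The summed level of 9 microglia or macrophage markers was 1.67 and 1.202 UMIs per 10000 in high-Ttr cells and 11.1 and 19.9 in low-Ttr cells, with none of the 9 at 0 in the latter. In the Pax6 or Dkk3 cells alone it was 0.122 and 0. That of 6 fibroblast markers was 0.0196 and 0.220 in high-Ttr and 24.95 and 35.8 in low-Ttr cells, also with none at 0. In the Pax6 or Dkk3 cells alone the fibroblast markers summed to 5.09 and 0.0456, with at least 3 of them in 1 cell of R1 and 0 of R2. All 8 rod markers were at 0 in low-Ttr cells of both mice. Without the cells marked as microglia or fibroblasts, Ctsh (log2 fold change 7.30), Grn (1.48) and Ctsl (1.34) were still called higher, and Atp6v1e1 (-2.21), Ctsd (-2.04) and Psap (-1.57) lower. The 5 Muller glia markers, of which Kcnj10 was at 0 in low-Ttr cells of both mice and Gfap in R2, summed to 11.6 and 11.2 in high-Ttr, 20.3 and 26.8 in low-Ttr and 21.7 and 29.8 in the Pax6 or Dkk3 cells, so leaving out the marked cells did not lower them, and at least 3 of them were found in 1 low-Ttr cell of R1 and 0 of R2. Immediate early genes, which respond to stress and handling, summed to 2.19 and 5.19 UMIs per 10000 in high-Ttr and 6.98 and 25.7 in low-Ttr cells, but to 3.29 and 2.41 in the Pax6 or Dkk3 cells alone. The median mitochondrial share was 1.30% and 1.26% against 2.57% and 3.35%. The part of these in the results was not tested. Microglia-marked cells held 7 of the 27 UMIs of Ctsh in R1 and 2 of the 31 in R2. The median Ttr of low-Ttr cells was 5.58% and 3% of that of high-Ttr cells, and the part of free RNA from RPE cells in their values was not tested.

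In the 55 and 16 low-Ttr cells with a UMI of Pax6 or Dkk3 alone, the direction of these 6 genes was the same. Ctsd stood at 11.1 and 11.2 UMIs per 10000, Psap at 10.9 and 9.97, Ctsl at 9.59 and 10.3, and Ctsh at 1.04 and 2.03. With only these cells, 3 members were called higher (6.12% of those tested, against 3.14% of all genes) and 9 lower (18.4%, against 5.65%), the 3 additional ones being Atp6v0d1, Ctsc and Smpdl3a. The 5 and 3 cells marked as other types were too few and too unlike for a comparison: their proteases summed to a mean of 103.2 UMIs per 10000 in R1 (SD over 5 cells 111.1, median 40.6) and 58.1 in R2 (SD over 3 cells 47.5, median 43.4), against medians of 40.6 and 37.9 in the Pax6 or Dkk3 cells.

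Despite these changes the mean sum over all members was similar in both classes, at 202.3 UMIs per 10000 in low-Ttr cells of R1 (SD over 59 cells 52.7) and 180.9 in R2 (SD over 19 cells 52.9). The high-Ttr means were 181.3 and 178.2. From pooled UMIs it was 200.6 and 171.4 in low-Ttr cells, against 185.1 and 180.5. The total includes Ttr, at a median of 11.3% and 13.0% of UMIs in high-Ttr and 0.632% and 0.391% in low-Ttr cells. The make-up of the sum differed. Membrane proteins gave 34.6% and 32.9% of it, against 22.1% and 21.2% in high-Ttr cells, and the soluble cofactors and carriers 11.2% and 12.02%, against 17.4% and 17.1%. Most of the membrane protein level was Cd63, at 35.6 and 60.2 UMIs per 10000 in R1 and at 33.1 and 46.4 in R2. Its fold change depended on scaling, at -0.19 with TMM (edgeR adjusted p 0.87) and 0.57 without (edgeR adjusted p 0.037).

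In the test as described, none of the 13 other hydrolases was called and no protease beyond Ctsd, Ctsl and Ctsh. Among these 13 hydrolases the median log2 fold change with TMM was -0.64, a value relative to that scaling. As a share of UMIs, mean over cells, their sum was higher in low-Ttr cells. It was at 11.8 UMIs per 10000 in high-Ttr and 16.4 in low-Ttr cells of R1, and at 10.6 and 13.4 in R2. The median cell was at 11.4 and 15.0 in R1 but at 9.84 and 9.40 in R2. From pooled UMIs the R2 values were 10.8 and 11.5. These shares are of a total that includes Ttr, which defines the classes. Lipa, the acid lipase that frees cholesterol from its esters, was at 0.469 UMIs per 10000 in high-Ttr and 1.48 in low-Ttr cells of R1, and at 0.404 and 1.48 in R2 (1.09, SE 0.47, edgeR adjusted p 0.15), and was called only without TMM or without the mouse as a block. Neu1, a sialidase, was at 0.837 and 0.609 and at 0.799 and 0.371 (-1.52, SE 0.55, edgeR adjusted p 0.056). It was called lower in 8 of the 14 alternatives. So were Ctsc (-0.98, range over alternatives -1.27 to -0.24, edgeR adjusted p 0.082 in the test as described) and Smpdl3a (-1.13, range -1.30 to -0.39, edgeR adjusted p 0.054), although the UMI levels of both were under the high-Ttr value in R1 only. Lgmn was called lower in 1 alternative, without microglia-marked cells. Hexa, a glycosidase that acts on gangliosides, was at 1.57 and 2.90 and at 1.39 and 2.30 (-0.09, edgeR adjusted p 0.95). Asah1, acid ceramidase, was at 0.865 and 2.57 in R1 but 0.804 and 0.994 in R2 (0.22, edgeR adjusted p 0.85), so the mice differed in it more than the classes of R2 did.

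The regulators were weakly expressed, with wide errors, and were not called. Tfeb was at 0.140 UMIs per 10000 in high-Ttr and 0.374 in low-Ttr cells of R1, and at 0.119 and 0.590 in R2 (log2 fold change 1.14, SE 0.82, edgeR adjusted p 0.53), on 7 and 5 UMIs in low-Ttr cells. Tfe3 had 5 and 3 UMIs there (0.80, SE 0.97, edgeR adjusted p 0.76). Mcoln1 had 4 UMIs in R1 and 0 in R2. Lamp1 and Lamp2, at 4.71 and 6.2 and at 4.10 and 6.79 in low-Ttr cells, were not called with TMM (0.53 and 0.40, edgeR adjusted p 0.47 and 0.66), and were called higher without it. In simulated data of this size, 2.0% of genes changed by a log2 of 1 were called, so most differences of that size would be missed. That share is an average over genes of many levels and sets no limit for a single gene. The changed genes were drawn from those expected at over 5 UMIs in the smallest library. Tfeb, Tfe3 and Mcoln1 lie below that and are not covered by it.

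Of 61 other lysosome genes, 58 were tested. Of these, 3 were higher and 2 lower, where 4.13% and 6.11% of all genes were, and the median log2 fold change was -0.45. Ctss (6.15, edgeR adjusted p 7.7e-11) and Cd68 (2.98, edgeR adjusted p 0.017), both typical of macrophages, were higher on 23 and 11 and on 12 and 5 UMIs in low-Ttr cells, and neither was called without the microglia-marked cells. Like Ctsh, Ctss passed the filter on low counts only with the low-Ttr libraries. Dnase2a, the acid nuclease (-3.38, edgeR adjusted p 0.0068), and Ostm1, the partner of a lysosomal chloride transporter (-2.62, edgeR adjusted p 0.0012), were lower on 2 and 0 and on 3 and 3 UMIs. Without TMM the call of Dnase2a was lost (edgeR adjusted p 0.062) and that of Ostm1 kept (edgeR adjusted p 0.036). Laptm4a (edgeR adjusted p 5.8e-15), Ctsk (edgeR adjusted p 0.0063) and others of the list were then called higher. The accessory V-ATPase gene Atp6ap2 was not called (-0.54, edgeR adjusted p 0.49).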

How the data were processed

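RPE cells of 2 mice were profiled by droplet scRNA-seq. The authors demultiplexed the reads, aligned them to GRCm38 and counted UMIs with Cell Ranger (the submitters' processing notes name bcl2fastq 2.20.0.422 and Cell Ranger 1.2.0), and deposited a table of whole-number UMI counts per gene and cell for each mouse, without normalization (26034378 and 29732969 UMIs). Analyses used R 4.3.3, edgeR 4.0.16, DESeq2 1.42.0 and Python 3.11.15 with numpy 2.4.6, pandas 2.3.3 and scipy 1.17.1.

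Kept were cells of at least 500 genes and at most 5% mitochondrial UMIs, the study's limits, without the 4% of cells with the highest score against artificial doublets (111 and 119 cells). The ambient RNA removal by SoupX that the study describes was not used here. Low-Ttr and high-Ttr cells were summed per mouse into 4 libraries and tested with edgeR's quasi-likelihood test (TMM, filterByExpr, mouse as a block, false discovery rate of 0.05). Both classes come from the same mouse, and across genes the difference between mice correlated between classes (r = 0.15, and 0.32 between depth quartiles). DESeq2 and the settings in the closing section were alternatives. Tested on simulated data, the test between classes recovered 2.0% of 200 genes changed by a log2 of 1 among 11183 genes, 67.5% at 2 (11179 genes) and 99.5% at 4 (11237 genes), and that between quartiles 61.0% at 1 (10475 genes). Levels are UMIs per 10000, mean over cells. Intervals are exact 95% Clopper-Pearson, and a count of 0 allows up to 3 counts.

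The members and lists were chosen with earlier results of these data known. Named were all called members, fixed genes (Tfeb, Tfe3, Mcoln1, Lamp1, Lamp2, Cd63, Ctsd, Ctsb, Psap, Grn and V-ATPase subunits), up to 5 called genes of the other lysosome list in each direction, and the 10 genes most like the set. One result of the other lysosome list is not reported here. Further genes were named after their values were seen, as the ends of a range or as partners in a complex. Promoters came from RefSeq and gene positions from GENCODE M21.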

Additional observations from a re-analysis of the deposited data

How the results depend on the processing

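Directions of Grn, Ctsl, Atp6v1e1, Ctsd and Psap and their calls held under all 14 tested alternatives. Those of Ctsh held too, but they rest on the same few low-Ttr cells and add no support beyond its counts. Scaling by library size without TMM gave 8 members higher and 3 lower, 1089 and 383 of all genes, a median of 0.29 over members, and Cd63 at 0.57 in place of -0.19. Beside 6 members called lower (12.2% of those tested, against 6.11% of all genes), 11 were called with no filter on low counts (20.8%, against 4.58%), with no cells removed by the doublet score (22.4%, against 6.82%) and with Ttr left out (22.4%, against 6.72%). With no limit on genes or mitochondrial UMIs there were 10 (20.4%, against 6.74%) and, in an alternative added after seeing the data, 10 without microglia-marked cells (20.4%, against 5.97%). DESeq2 called 426 of all genes lower in place of 701. Leaving out a mouse leaves no residual degrees of freedom and so no test and no counts, and moved the members' median between -0.74 and -0.31 (without R1 and without R2).

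Without the mouse as a block, 4 members were called higher and 11 lower (8.16% and 22.4% of those tested, against 8.29% and 11.1% of all genes), and 950 of all genes higher and 1268 lower, and between depth quartiles 0 and 0. The pairing rests on the shared mouse, and all 9 members called with the block were also called without it, where Lipa was added to the higher ones and Atp6v0d1, Atp6v1d, Ctsc, Neu1 and Smpdl3a to the lower ones.

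Between depth quartiles 0 members were called under every alternative. The members' median was between 0.00042 and 0.15 without a mouse and -0.0022 between the lowest and highest 20% of cells by depth. Over all genes, with 1 higher and 49 lower in the main test, DESeq2 called 0 and 6, no TMM 3 higher, RLE factors 2 higher, no doublet removal and no quality limit 5 higher each, 10% ambient RNA subtracted 0 and 24, and Ttr left out 0 and 28.

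The summed level in high-Ttr cells was 185 and 181 from pooled UMIs and 205 in both mice with Ttr left out of the total. Thinning to 4000 UMIs gave a median share of 27.3% and 25.2%. The median r of member pairs was 0.0406 and 0.033 without the split by depth, 0.0106 and 0.00592 without the log, and 0.0105 in R1 over cells thinned to 4000 UMIs. The causes were not tested. With 59 and 19 low-Ttr cells, members with few UMIs have wide errors, and only 2 mice limit every test.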
